A study of Mus musculus with 8 samples.

Results

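The genes described here are 7 matrix metalloproteinases (Mmp2, Mmp3, Mmp9, Mmp10, Mmp11, Mmp13 and Mmp14) and 3 tissue inhibitors of metalloproteinases (Timp1, Timp2 and Timp3), all 10 of which were found among the 19493 endogenous genes of the count table by their Ensembl IDs. RNAseq with ERCC spike-ins, synthetic transcripts put into lysates of equal numbers of cells, was carried out on 8 cultures of mouse embryonic fibroblasts (MEFs) from E14.5 embryos. The 4 wild-type (WT) libraries and the 4 Dp1Tyb libraries are labelled alike with the strain background C57BL/6J.129P2, while the methods describe mice backcrossed to C57BL/6JNimr, and the Dp1Tyb cells carry Dp(16Lipi-Zbtb21)1TybEmcf, a duplication of the chromosome segment from Lipi to Zbtb21 that models Down syndrome. None of the 10 genes lies on the duplicated chromosome, so each is present in the normal number of copies in both genotypes. The cultures were grown from minced embryos without head and viscera and were passaged and trypsinised, so other cells of the embryo may be present, and the sex of the embryos is not given in the sources used here. The labels do not say that the libraries came from separate embryos, so p-values rest on differences between these libraries, which may be partly technical. A pair of libraries, WT replicate 1 and Dp1Tyb replicate 1, stood apart by low Timp1 and high Timp2. The log2 fold changes without both libraries are given for each gene, for some of them in the last section. Lists of 4 values are in the order of replicates 1 to 4.

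Matrix metalloproteinases are zinc-dependent endopeptidases that are made as inactive proenzymes and cut collagens, proteoglycans and other proteins of the extracellular matrix. TIMPs are small proteins that bind the active site of the enzymes and block it. In fibroblasts, the membrane-anchored enzyme Mmp14 uses Timp2 as a bridge to activate pro-Mmp2, while stromelysins and collagenases such as Mmp3, Mmp10 and Mmp13 are typical secreted products whose genes respond to growth factors and inflammatory cytokines through AP-1, a dimer of Fos and Jun proteins. Mmp9, a gelatinase, is best known from macrophages, neutrophils and osteoclasts.

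Mmp13, Mmp3 and Mmp10 lie in a cluster of metalloproteinase genes on chromosome 9 (GRCm38, GENCODE M21). Mmp13 (ENSMUSG00000050578) extends from 7272514 to 7283331, Mmp3 (ENSMUSG00000043613) from 7445822 to 7455975 and Mmp10 (ENSMUSG00000047562) from 7502352 to 7510240, all on the plus strand and together within 237727 bp. RefSeq (GRCm38.p6) gave a promoter for 8 of the 10 genes. The 150 bases before the transcription start of the cluster genes are shown because these genes shared an AP-1 motif and a TATA box that the same window of the other members lacked, and that of Mmp14 is shown for contrast. The windows, all on the plus strand of GRCm38.p6, are chr9:7272364-7272513 for Mmp13, chr9:7445672-7445821 for Mmp3, chr9:7502192-7502341 for Mmp10 and chr14:54431448-54431597 for Mmp14. Capitals mark the AP-1 motif TGAGTCA (on either strand, so also TGACTCA), the ETS motif AGGAAG (either strand) and the TATA box TATAAA (plus strand). The motifs do not overlap one another in these windows.
Mmp13: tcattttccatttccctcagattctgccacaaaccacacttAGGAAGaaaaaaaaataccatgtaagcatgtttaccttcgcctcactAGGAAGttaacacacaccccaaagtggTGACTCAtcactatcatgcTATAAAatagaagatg
Mmp3: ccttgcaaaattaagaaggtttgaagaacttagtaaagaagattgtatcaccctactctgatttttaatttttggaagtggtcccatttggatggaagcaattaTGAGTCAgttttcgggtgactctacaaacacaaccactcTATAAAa
Mmp10: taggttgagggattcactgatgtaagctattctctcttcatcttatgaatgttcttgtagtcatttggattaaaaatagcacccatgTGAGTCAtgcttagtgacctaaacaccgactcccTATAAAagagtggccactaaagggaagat
Mmp14: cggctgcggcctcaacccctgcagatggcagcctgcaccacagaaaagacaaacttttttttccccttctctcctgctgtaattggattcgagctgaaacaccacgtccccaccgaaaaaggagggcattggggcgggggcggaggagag

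The AP-1 motif was found in Mmp13, Mmp3 and Mmp10 and in none of the 5 other members with a promoter sequence, and 2.84% of all 32851 RefSeq promoter windows of this length hold it. It ends 29 bases before the start of Mmp13, 40 before that of Mmp3 and 57 before that of Mmp10. The TATA box was likewise found in these 3 genes only, against 4.84% of all windows. It ends 11 bases before the start of Mmp13, 2 before that of Mmp3 and 24 before that of Mmp10. These distances count from the RefSeq start, which can differ from that of GENCODE. The Mmp11 window, 75932503 to 75932652, lies inside the GENCODE span of that gene, so its lack of a motif holds for this window only. Mmp13 has 2 ETS motifs and Timp1 has 1, against 19.7% of all windows. A match describes these letters and not binding by a factor, and the reads bear on the level of each mRNA rather than on its promoter.

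The cultures expressed the activation machinery and the inhibitors strongly and Mmp9 weakly. Levels between genes were compared per length as RPKM (reads scaled by the length of the exons and by library) under spike-in scaling. Timp1 had the highest mean, 332 ± 140 RPKM, followed by Timp2 with 329 ± 186 RPKM (SD, n = 8 each). Mmp2, the gelatinase that digests denatured and basement membrane collagen, stood at 156 ± 57.1 RPKM and its activator Mmp14 at 133 ± 36.4 RPKM (SD, n = 8 each). Timp3, an inhibitor that is held in the matrix, had 111 ± 29.1 RPKM and Mmp3, stromelysin, 95.9 ± 63.1 RPKM (SD, n = 8 each). These 6 genes were above 98.1% of the 19318 genes with an annotated length. Much lower were the collagenase Mmp13 with 19.4 ± 9.33 RPKM, Mmp11, which is activated inside the cell by furin, with 10.2 ± 2.59 RPKM, and the other stromelysin Mmp10 with 10.1 ± 8.0 RPKM (SD, n = 8 each). Mmp9 had 1.01 ± 0.567 RPKM (SD, n = 8), above 33.1% of genes.

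Some neighbours in this order were not separated by more than their spread. The log2 ratio of Timp1 to Timp2, taken within each library so that the scaling cancels, was 0.10 ± 1.10, and Timp1 was the higher of the pair in 6 of 8 libraries. Mmp2 exceeded Mmp14 by 0.19 ± 0.23, Mmp14 exceeded Timp3 by 0.25 ± 0.46, Timp3 exceeded Mmp3 by 0.50 ± 1.14 and Mmp11 exceeded Mmp10 by 0.40 ± 1.37 on the log2 scale (SD, n = 8 each). By contrast, Timp2 lay above Mmp2, Mmp3 above Mmp13 and Mmp10 above Mmp9 in 8 of 8 libraries, and Mmp13 lay above Mmp11 in 7 of 8.

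**Figure D1:**
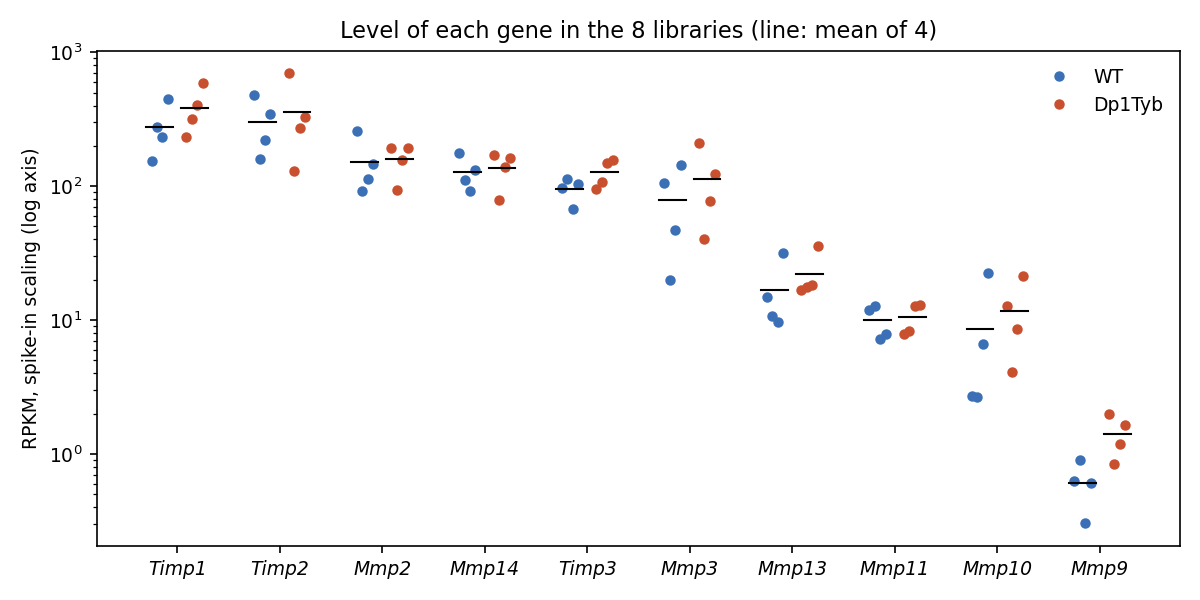
RPKM under spike-in scaling (log axis) of the 10 genes in each library, with WT in blue, Dp1Tyb in red and a line at the mean of 4 libraries. Mmp9 is the lowest gene, and the genotypes overlap for every gene on this scale.

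The expression of Mmp and Timp genes in Dp1Tyb and WT MEFs was compared with libraries scaled to the spike-ins, which measures mRNA per added spike-in, and with libraries scaled to the endogenous genes (relative scaling), which measures a gene among all mRNA. Fewer cells expressing a gene and less mRNA per cell cannot be told apart in such bulk samples. By edgeR, none of the members had an adjusted p under 0.05 with spike-in scaling, where 0.0121% of the 16470 tested genes were called, or with relative scaling, where 0.0182% were called. At an unadjusted p under 0.05, 1 member, Mmp9, was past the threshold under both scalings, where the shares over all tested genes were 1.17% and 4.27%. This count was 5 with spike-in scaling without WT replicate 4 (Mmp3, Mmp9, Mmp10, Mmp13 and Timp1), where the share over all tested genes was 1.45%, and 4 without Dp1Tyb replicate 2 (Mmp3, Mmp9, Mmp10 and Timp1), where it was 3.21%. With spike-in scaling edgeR estimated infinite prior degrees of freedom and so gave genes of like level the same spread, with an SE of 0.32 to 0.34 for 9 of the members, whether a gene varied little or much between cultures. For Mmp3, Mmp10 and Timp2 the SE from the gene's own log2 values was 0.82, 0.88 and 0.61, so their spike-in intervals and p-values understate the spread between cultures. The same holds to a lesser degree for Mmp13, Timp1 and Mmp2, with an own SE of 0.46, 0.42 and 0.41. For Timp3 and Mmp11 the own SE was lower than the shared one, 0.24 and 0.28, and for Mmp14 it was 0.32. With relative scaling the count at an unadjusted p under 0.05 was 2 without WT replicate 2 or Dp1Tyb replicate 1 (Mmp9 and Timp3, beside 5.52% and 5.53% of all genes), 2 without WT replicate 4 (Mmp9 and Mmp13, beside 3.99%) and 3 without both libraries numbered 1 (Mmp9, Timp1 and Timp3, beside 5.31%). Under both scalings, leaving out any other single library left 1 member, Mmp9. DESeq2 called 0 of the 10 members under either scaling, beside 2 of the 16470 tested genes with spike-in and 54 with relative scaling. With spike-in scaling all 10 members had a fold change above 1, where the median over all tested genes also lay above 1. The share of all tested genes above 1 was not counted on that scale, so the 10 of 10 has no share beside it. On the relative scale 7 members had a fold change above 1, beside 8430 of the 16470 tested genes on the same scale. The median log2 fold change of the members was 0.41 with spike-in scaling, beside 0.11 for all tested genes, and 0.31 with relative scaling, beside 0.01 for all tested genes. These medians moved with single libraries. With spike-in scaling the count of members above 0 fell from 10 to 7 without WT replicate 3, Dp1Tyb replicate 1 or Dp1Tyb replicate 4. On that scale the members' median was 0.14 without Dp1Tyb replicate 4 (0.01 for all genes) and 0.20 without WT replicate 2 (0.07 for all genes). It was 0.25 without WT replicate 3 (-0.02 for all genes) and 0.64 without WT replicate 4 (0.20 for all genes). With relative scaling it was 0.15 without WT replicate 2 and 0.20 without Dp1Tyb replicate 1, and 0.14 without both libraries numbered 1. Apart from Mmp9, the edgeR adjusted p of each member was 1.00 with spike-in and 0.999 with relative scaling.

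**Figure D2:**
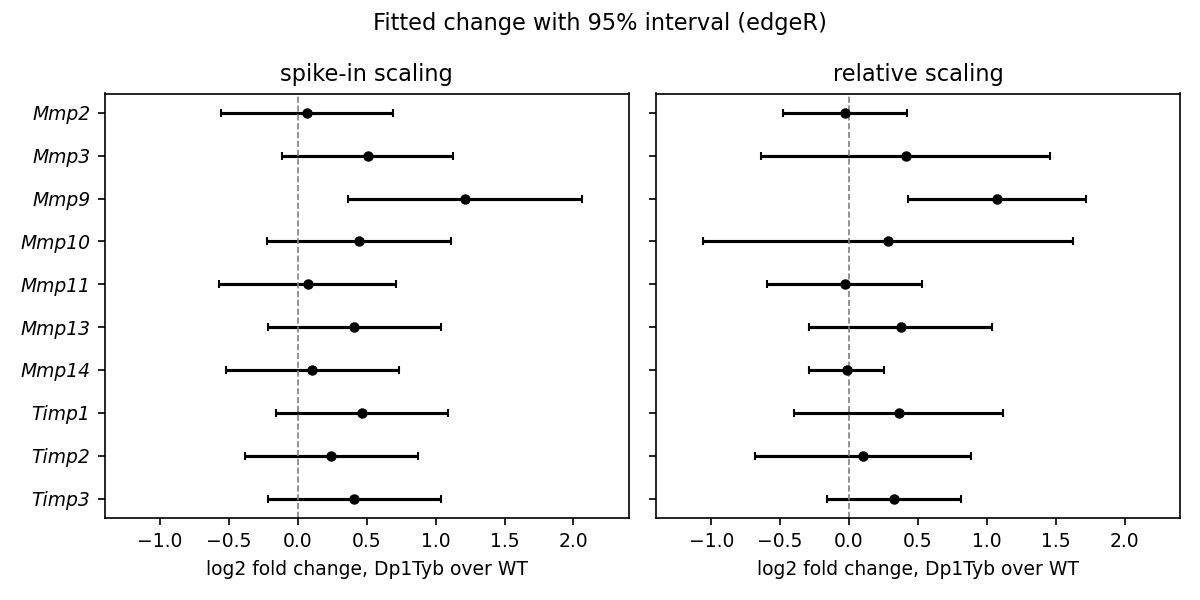
Fitted log2 fold change of Dp1Tyb over WT with its 95% interval from edgeR for each gene, with spike-in scaling on the left and relative scaling on the right. The interval of Mmp9 lies above 0 in both panels before adjustment for multiple tests, and those of the other genes include 0.

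Mmp9 (ENSMUSG00000017737, chromosome 2, 164940780 to 164955850) had the fold change farthest from 1 among the members, higher in Dp1Tyb MEFs, and rested on few reads in every library. WT libraries held 42, 86, 32 and 38 raw counts, and Dp1Tyb libraries held 152, 75, 82 and 78. With relative scaling the normalised read counts were 39.2, 76.2, 31.7 and 38.5 in WT and 123, 90.4, 84.3 and 93.8 in Dp1Tyb. Every Dp1Tyb library was thus above every WT library, a pattern shown by 1 of the 10 members and by 1.64% of all tested genes. With spike-in scaling the normalised read counts were 46.5, 67.3, 22.6 and 45.1 in WT and 148, 62.2, 88.7 and 123 in Dp1Tyb. Here the groups overlapped, since Dp1Tyb replicate 2 fell below WT replicate 2, and 0 of the 10 members had every Dp1Tyb library above every WT library, against 0.285% of all tested genes.

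The log2 fold change of Mmp9 was 1.07 (SE 0.29) with relative scaling, a fold change of 2.10 with a 95% interval from 1.35 to 3.29. The unadjusted edgeR p was 0.00410 and the edgeR adjusted p was 0.823, so Mmp9 failed the correction. With spike-in scaling the log2 fold change was 1.21 (SE 0.43), a fold change of 2.32 with an interval from 1.29 to 4.18, an unadjusted edgeR p of 0.00506 and an edgeR adjusted p of 1.00. Leaving out 1 library at a time gave log2 fold changes from 0.93 to 1.43 with relative and from 0.98 to 1.47 with spike-in scaling. Without both libraries numbered 1, an alternative chosen after seeing the data, they were 0.87 and 1.02. Across all alternatives the lowest adjusted p was 0.0988, from DESeq2 with its own size factors, and the highest was 1.00.

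Because Mmp9 is known from macrophages and osteoclasts, markers of these cells were examined beside it. All 6 macrophage markers (Adgre1, Csf1r, Cd68, Lyz2, Itgam and Ptprc) were present, and all 6 had a fold change below 1 under both scalings, the direction opposite to that of Mmp9. Their summed relative normalised read count ranged from 5409 to 7429 in WT and from 3004 to 6060 in Dp1Tyb. None was called at an adjusted p under 0.05 in edgeR, and 5 of 6 had an unadjusted p under 0.05 with relative scaling while 1 of 6 did when scaled to spike-ins. The one with the smallest p, named because of it, was Ptprc, which encodes a surface phosphatase of leukocytes. Its relative normalised read count averaged 301 ± 14.9 for WT against 165 ± 11.4 for Dp1Tyb (SD, n = 4 each). All 4 Dp1Tyb libraries were below all WT libraries, with a log2 fold change of -0.87 (SE 0.12) and an adjusted p of 0.0903 from edgeR. Of 4 osteoclast markers, Calcr and Dcstamp were not in the table, and the sum of Acp5 and Ocstamp reached at most 32.8 in WT and 44.6 in Dp1Tyb. Ocstamp was too low to be tested, and Acp5, with 8 to 33 raw counts per library, had a log2 fold change above 0 like Mmp9, 0.69 (SE 0.46) with relative and 0.76 (SE 0.52) with spike-in scaling, with overlapping groups. Neutrophil markers were not examined as a list. The part of these cells in the Mmp9 difference was not tested.

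**Figure D3:**
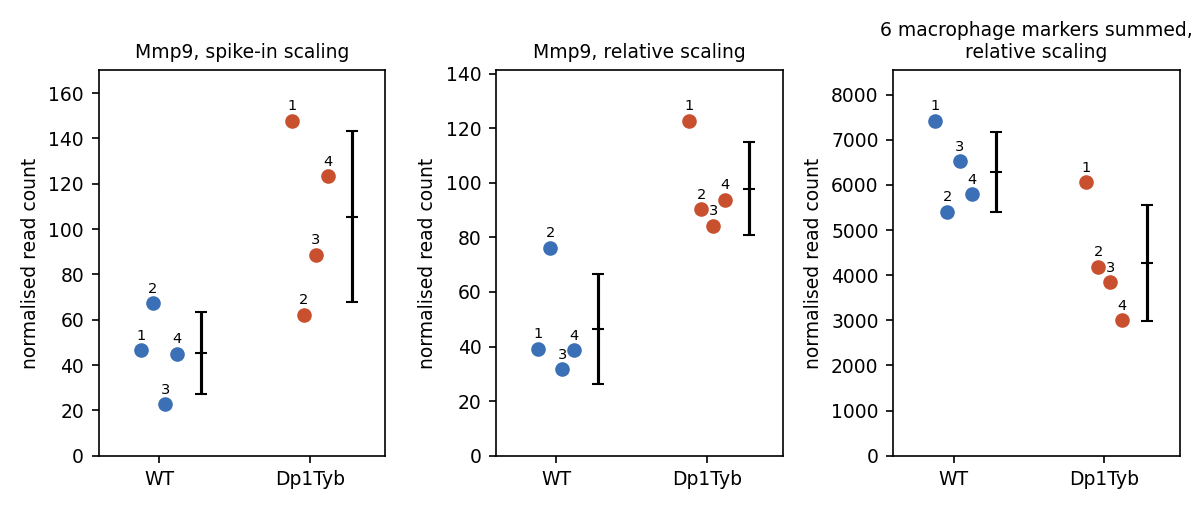
Normalised read counts of Mmp9 under both scalings and of the sum of 6 macrophage markers under relative scaling, by library (numbers are replicates), with mean ± SD at the side of each group. Mmp9 reaches from 84.3 to 123 in Dp1Tyb and from 31.7 to 76.2 in WT with relative scaling, while the macrophage sum runs from 3004 to 6060 in Dp1Tyb and from 5409 to 7429 in WT.

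The other gelatinase, Mmp2 (ENSMUSG00000031740, chromosome 8, 92827291 to 92853420), and its activator Mmp14 (ENSMUSG00000000957, chromosome 14, 54431612 to 54445364) had the fold changes closest to 1 together with Mmp11. The relative normalised read counts of Mmp14 were 18626, 15827, 16325 and 14206 in WT and 17786, 14275, 16670 and 15496 in Dp1Tyb. The groups covered the same range. The highest library held only 1.31 times the level of the lowest, the smallest such ratio among the 10 members with relative scaling. With spike-in scaling this ratio was 2.25 for Mmp14, and the smallest was 1.77 for Mmp11. Fitted over all libraries, the log2 fold change of Mmp14 was -0.02 (SE 0.12) with relative scaling, with a fold change interval from 0.819 to 1.19, and 0.10 (SE 0.32) with spike-in scaling. For Mmp2 the relative normalised read counts were 15334, 7340, 11241 and 8949 in WT and 11287, 9631, 10647 and 10459 in Dp1Tyb. All 4 Dp1Tyb libraries lay inside the WT range. The log2 fold change of Mmp2 was -0.03 (SE 0.20) with relative and 0.07 (SE 0.32) with spike-in scaling. The signs of both genes thus differed between the scalings, and they also turned when single libraries were left out. With relative scaling Mmp2 was 0.20 without WT replicate 1 and above 0 without WT replicate 3 or Dp1Tyb replicate 2, and Mmp14 was 0.06 without WT replicate 1 and 0.04 without Dp1Tyb replicate 2. With spike-in scaling Mmp2 was below 0 without WT replicate 2 or 3 or Dp1Tyb replicate 1 or 4, and Mmp14 without WT replicate 3 or Dp1Tyb replicate 1.

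Mmp11 (ENSMUSG00000000901, chromosome 10, 75923222 to 75936496, minus strand) had relative normalised read counts of 590, 849, 596 and 390 in WT and 384, 708, 710 and 573 in Dp1Tyb. The highest value was that of WT replicate 2 and the lowest that of Dp1Tyb replicate 1. Its log2 fold change was -0.03 (SE 0.25) with relative and 0.07 (SE 0.33) with spike-in scaling. With relative scaling it was 0.19 without WT replicate 2 and 0.13 without Dp1Tyb replicate 1, and with spike-in scaling it was below 0 without replicate 3 or 4 of either genotype. Mmp11 overlaps Chchd10 on the opposite strand, and since the strand option of the counting is not stated, reads of the overlap may be assigned to either gene or to neither.

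The stromelysins and the collagenase of the chromosome 9 cluster differed widely between cultures of the same genotype. Mmp3 had spike-in normalised read counts of 4007, 757, 1790 and 5458 in WT and 7971, 1516, 2924 and 4668 in Dp1Tyb, so the highest library held 10.5 times the level of the lowest. The lowest library was WT replicate 2 and the highest Dp1Tyb replicate 1, and the remaining values were interleaved. The fitted log2 fold change of Mmp3 was 0.51 (SE 0.32) with spike-in and 0.41 (SE 0.47) with relative scaling. The spike-in SE is the shared one, and DESeq2, which fits a spread per gene, gave Mmp3 an SE of 0.73 with spike-in scaling. The unadjusted p of Mmp3 was 0.487 in DESeq2 beside 0.108 in edgeR. Leaving out Dp1Tyb replicate 1 gave 0.02 with spike-in and -0.00256 with relative scaling, and leaving out WT replicate 4 gave 0.96 and 0.76. Without both libraries numbered 1 the values of Mmp3 were 0.19 and 0.09.

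Mmp10 had spike-in normalised read counts of 97.5, 97.0, 238 and 812 in WT and 463, 148, 310 and 776 in Dp1Tyb. WT replicate 4 and Dp1Tyb replicate 4 were the highest in their groups, and the WT libraries covered the whole range of Dp1Tyb. For Mmp10 the log2 fold change was 0.45 (SE 0.34) with spike-in and 0.28 (SE 0.60) with relative scaling. Scaled to spike-ins, DESeq2 gave Mmp10 an SE of 0.84. The unadjusted p of Mmp10 was 0.594 in DESeq2 beside 0.191 in edgeR. The log2 fold change of Mmp10 was -0.02 with spike-in and -0.03 with relative scaling without Dp1Tyb replicate 4. It was also -0.03 without WT replicate 1 with relative scaling. Without WT replicate 4 it was 1.55 with spike-in and 1.09 with relative scaling, and the edgeR adjusted p over the alternatives of Mmp10 ran from 0.430 to 1.00.

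Mmp13 had spike-in normalised read counts of 832, 599, 543 and 1771 in WT and 945, 1000, 1031 and 1998 in Dp1Tyb. The 3 lower libraries of Dp1Tyb lay above the 3 lower libraries of WT, but WT replicate 4 exceeded all of these. Its log2 fold change was 0.41 (SE 0.32) with spike-in and 0.37 (SE 0.30) with relative scaling, and it stayed above 0 when any single library was left out, from 0.09 to 0.92 with spike-in and from 0.23 to 0.73 with relative scaling. The fold change interval of Mmp13 with relative scaling was 0.818 to 2.05.

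**Figure D4:**
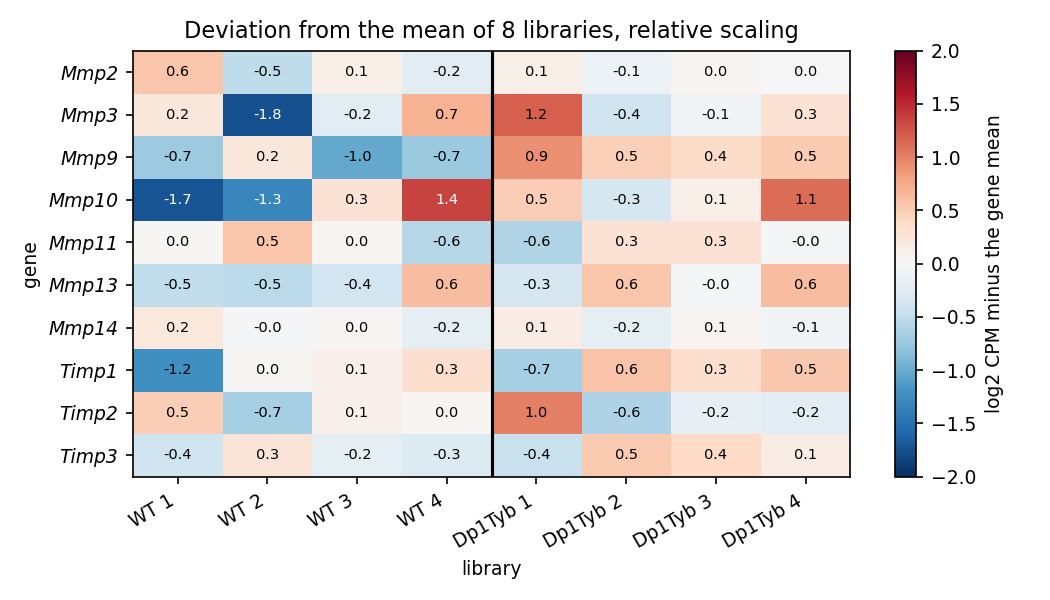
Deviation of log2 CPM (pseudocount 0.5, relative scaling) of each gene from its mean over the 8 libraries, with red above and blue below the mean. Timp1 is at -1.2 in WT replicate 1 and -0.7 in Dp1Tyb replicate 1, where Timp2 is at 0.5 and 1.0.

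Among the inhibitors, Timp1 and Timp2 were at opposite ends in the same libraries. Timp1 (ENSMUSG00000001131, chromosome X, 20870166 to 20874735) had relative normalised read counts of 2450, 5820, 6138 and 7217 in WT and 3643, 8570, 7224 and 8330 in Dp1Tyb. Timp2 (ENSMUSG00000017466, chromosome 11, 118301069 to 118355740) had 33058, 14941, 25381 and 24182 in WT and 47536, 15412, 21116 and 20443 in Dp1Tyb. The libraries numbered 1 of both genotypes were thus the lowest of their group for Timp1 and the highest for Timp2. In these libraries Timp2 made up 65.5% and 67.9% of the summed Timp RPKM, whereas its share ran from 23.4% to 42.3% in the other 6. Timp1 made up 21.3% and 22.8% in the libraries numbered 1 and from 44.8% to 57.2% in the others. The libraries numbered 1 also held the 2 highest relative normalised read counts of Mmp12, macrophage elastase and a gene of the chromosome 9 cluster, at 470 and 644, where the others had from 117 to 202. Mmp12 was named here after its values were seen. The number is a name given in the labels, and the sources do not tie it to a litter or a day.

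Timp1 reached a log2 fold change of 0.47 (SE 0.32) with spike-in and 0.36 (SE 0.34) with relative scaling. When single libraries were left out, Timp1 ran from 0.20 (without Dp1Tyb replicate 4) to 0.81 (without WT replicate 4) with spike-in scaling, and from 0.12 (without WT replicate 1) to 0.57 (without Dp1Tyb replicate 1) with relative scaling. Without both libraries numbered 1 it was 0.45 and 0.33. That of Timp2 was 0.24 (SE 0.32) and 0.10 (SE 0.35), and it turned to -0.30 with spike-in and -0.36 with relative scaling without Dp1Tyb replicate 1. Timp2 was also -0.07 with relative scaling without WT replicate 2, and without both libraries numbered 1 it was 0.0061 with spike-in and -0.18 with relative scaling. Timp3 (ENSMUSG00000020044, chromosome 10, 86300372 to 86349506) had spike-in normalised read counts of 16580, 19483, 11575 and 17878 in WT and 16363, 18287, 25549 and 26857 in Dp1Tyb. On this scale Dp1Tyb replicates 3 and 4 were above all WT libraries and the other 2 were within the WT range. With relative scaling Timp3 had 13586, 26595, 24274 and 20439 in Dp1Tyb and from 13975 to 22076.5 in WT. There Dp1Tyb replicates 2 and 3 were above all WT libraries, replicate 4 was within the WT range and replicate 1 was below it. Timp3 reached a log2 fold change of 0.41 (SE 0.32) with spike-in and 0.33 (SE 0.22) with relative scaling, and when single libraries were left out it ran from 0.27 to 0.54 and from 0.20 to 0.50.

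Timp1 and Timp3 lie within the spans of Syn1 and Syn3, synapsin genes of neurons, on the opposite strand. Syn1 had from 67 to 253 and Syn3 from 19 to 71 raw counts per library, beside at least 2624 for Timp1 and 14969 for Timp3, so reads assigned to the host genes were few. The log2 fold changes were -0.23 (SE 0.40) for Syn1 and -0.18 (SE 0.33) for Syn3 with relative scaling. Timp2 overlaps Cep295nl on the same strand, which had a mean of 608 counts against at least 12786 for Timp2.

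The balance of enzymes to inhibitors was described as the summed RPKM of the 7 Mmp genes over that of the 3 Timp genes. The ratio was 0.778, 0.455, 0.530 and 0.540 in WT and 0.595, 0.440, 0.503 and 0.515 in Dp1Tyb, and the groups overlapped. It averaged 0.576 ± 0.140 for WT against 0.513 ± 0.0637 for Dp1Tyb (SD, n = 4 each), and no test was made, since it is a score over chosen members. The log2 ratio was lower by 0.14 in Dp1Tyb (difference -0.14), less than the SD of 0.33 in WT. This difference rested on WT replicate 1, since the log2 difference was 0.01 without it, -0.07 without Dp1Tyb replicate 2, -0.25 without WT replicate 2 and -0.22 without Dp1Tyb replicate 1. Without both libraries numbered 1 it was -0.06, and these alternatives for the ratio were chosen after seeing the data. Mmp2 and Mmp14 made up from 30.3% to 45.1% and from 27.2% to 44.6% of the Mmp sum, Mmp3 from 8.0% to 34.4% and Mmp9 at most 0.362%.

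**Figure D5:**
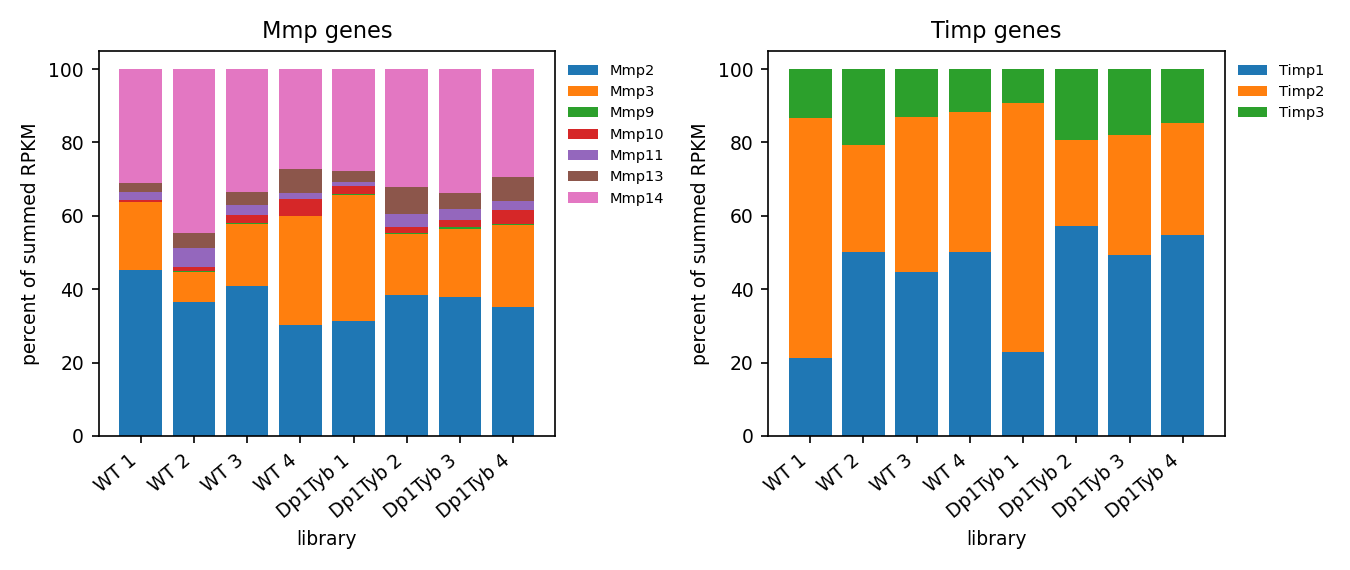
Share of each gene in the summed RPKM of the Mmp genes (left) and of the Timp genes (right), in percent, for each library. Timp2 takes 65.5% and 67.9% of the Timp sum in the libraries numbered 1, and Mmp3 ranges from 8.0% to 34.4% of the Mmp sum.

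To describe which members varied together from culture to culture, 8 pairs were compared over the 8 libraries by log2 CPM with relative scaling. Mmp2 and Mmp14 gave Pearson r = 0.706 (exact permutation p = 0.0472, adjusted 0.159) and Spearman rho = 0.833 (exact permutation p = 0.0154, adjusted 0.0615), and without the 2 libraries farthest from the median of Mmp2 r was 0.909. Mmp2 and Timp2 gave r = 0.665 (exact permutation p = 0.0743, adjusted 0.159) and rho = 0.833 (exact permutation p = 0.0154, adjusted 0.0615), with r = 0.521 without the 2 farthest libraries. Mmp14 and Timp2 gave r = 0.688 (exact permutation p = 0.0583, adjusted 0.159) and rho = 0.619 (exact permutation p = 0.115, adjusted 0.184), with r = 0.828 without the 2 farthest libraries. So none of the pairs of the activation complex passed the correction over 8 pairs, although all 3 coefficients were positive. Taken as deviations from the genotype mean, r was 0.710, 0.665 and 0.690 for these pairs. The 2 farthest libraries were WT replicates 1 and 2 for the pairs of Mmp2, and WT replicates 1 and 4 for Mmp14 and Timp2. Dp1Tyb replicate 1, which had the highest Timp2, stayed in each time. No pair was computed without both libraries numbered 1 under either scaling, and the part of those libraries in the coefficients was not tested.

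With spike-in scaling the same pairs reached r = 0.910, 0.876 and 0.878 (exact permutation p adjusted over 8 pairs = 0.0143, 0.0146 and 0.0146) and passed. By Spearman rho, Mmp2 and Mmp14 (0.905) and Mmp14 and Timp2 (0.881) passed (exact permutation p adjusted over 8 pairs = 0.0290 for both), and Mmp2 and Timp2 (rho = 0.810, adjusted exact permutation p = 0.0559) did not. Values on that scale share the RNA recovered per spike-in of their library, which ranged from 0.688 to 1.31 times the geometric mean, and its part in these coefficients was not tested.

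In the chromosome 9 cluster, Mmp10 and Mmp13 gave r = 0.668 (exact permutation p = 0.0793, adjusted 0.159) and rho = 0.738 (exact permutation p = 0.0458, adjusted 0.122), and r fell to 0.341 without WT replicates 1 and 2. Mmp3 and Mmp10 gave r = 0.580 (exact permutation p = 0.130, adjusted 0.208) and rho = 0.667 (exact permutation p = 0.0831, adjusted 0.166), with r = 0.402 without the 2 farthest libraries. Mmp3 and Mmp13 gave r = 0.289 (exact permutation p = 0.522, adjusted 0.596) and rho = 0.452 (exact permutation p = 0.267, adjusted 0.357), with r = 0.272 without those libraries. With spike-in scaling the cluster pairs had r = 0.773 for Mmp10 and Mmp13, 0.70 for Mmp3 and Mmp10 and 0.624 for Mmp3 and Mmp13 (exact permutation p adjusted over 8 pairs = 0.0500496, 0.0906 and 0.134), so none of them passed. The pairs with Timp1 are given last. Mmp9 and Timp1 gave r = 0.197 (exact permutation p = 0.655, adjusted 0.655) and rho = 0.238 (exact permutation p = 0.582, adjusted 0.619), with r = 0.550 without WT replicates 3 and 4. Mmp3 and Timp1 gave r = -0.252 (exact permutation p = 0.514, adjusted 0.596) and rho = -0.214 (exact permutation p = 0.619, adjusted 0.619), with r = -0.161 without the 2 farthest libraries.

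The genes whose profiles were most like those of Mmp13 and Mmp3 were found by the root mean square difference between log2 CPM profiles over the 8 libraries, each gene set to a mean of 0. A difference in library scaling cancels in this measure. Closest to Mmp13 among 3965 candidates were Nup62cl (0.229), Gm8451 (0.234), Ntm (0.258), Pcsk5 (0.261) and Moxd1 (0.265 log2 units), where Mmp13 itself had an SD of 0.516. Pcsk5 encodes a proprotein convertase. Closest to Mmp3 among 1299 candidates were C630043F03Rik (0.327), Eva1c (0.344), Perp (0.345), Mapk13 (0.355) and Hs3st1 (0.357 log2 units), where Mmp3 had an SD of 0.871. Neither list contained another member, but the filters on count and SD had left out several members beforehand. These were Mmp9 and Mmp14 for both lists, and also Mmp2, Mmp11 and Timp3 for that of Mmp3.

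The rest of the system was described by gene lists that were chosen for their known roles, with earlier results of these data known. Of 18 other metalloproteinases and inhibitors, 14 were in the table and 10 were tested. None was called by edgeR under either scaling, and at an unadjusted p under 0.05 there was 1 higher with spike-in scaling and 1 lower with relative scaling. The former was Mmp8, neutrophil collagenase, with 11, 3, 6 and 13 raw counts in WT and 5, 36, 4 and 21 in Dp1Tyb, which overlapped widely. The latter was Mmp17, a membrane-type enzyme, with relative normalised read counts of 399, 202, 224 and 198 in WT and 150, 174, 181 and 178 in Dp1Tyb. Every Dp1Tyb library of Mmp17 was below every WT library, with a log2 fold change of -0.58 (SE 0.23), an unadjusted edgeR p of 0.0311 and an edgeR adjusted p of 0.999, but the groups overlapped with spike-in scaling.

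Of 15 genes of proenzyme activation, docking and clearance, such as furin, urokinase and its receptor, 14 were tested and none was called. Plat, the tissue plasminogen activator, was the only one with an unadjusted p under 0.05, with relative scaling. Its relative normalised read count averaged 1813 ± 72.5 for WT against 2156 ± 202 for Dp1Tyb (SD, n = 4 each). The log2 fold change was 0.25 (SE 0.10), and edgeR gave an adjusted p of 0.999. All 8 substrate genes tested, which included collagens, fibronectin and osteopontin, had an unadjusted p above 0.05.

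Of 19 inducers and transcription factors of these genes, among them Fos and Jun proteins, ETS factors and cytokines, 18 were tested and none was called by edgeR. Their median log2 fold change was -0.12 on the relative scale (0.01 for all tested genes) and 0.05 with spike-in scaling (0.11 for all tested genes). With relative scaling no gene had an unadjusted p under 0.05. With spike-in scaling 1 gene did, Tnf, a cytokine of macrophages that induces metalloproteinases. Its raw counts were 17, 132, 159 and 137 in WT and 9, 34, 60 and 36 in Dp1Tyb, and the fitted log2 fold change was -1.34 (SE 0.44). For Tnf the p from edgeR was 0.00251 before and 1.00 after adjustment. The libraries numbered 1 were the lowest in both groups for Tnf as well. Ets2, a factor encoded in the duplicated region, averaged 1562 ± 512 spike-in normalised reads for WT against 2217 ± 772 for Dp1Tyb (SD, n = 4 each). It reached a log2 fold change of 0.50 (SE 0.32) with spike-in and 0.39 (SE 0.26) with relative scaling, and the edgeR adjusted p was 1.00 and 0.999.

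Total counts per library ran from 17698900 to 26471758. The labelled cell type was checked by 8 fibroblast markers, all of which were tested, with a summed relative normalised read count from 235238 to 394089 in WT and from 260874 to 367665 in Dp1Tyb. Of 5 endothelial markers, the sum ranged from 711 to 1177 in WT and from 664 to 1648 in Dp1Tyb. Keratinocyte markers ranged from 52.7 to 115 in WT and from 48.5 to 82.0 in Dp1Tyb, and skeletal muscle markers from 52.3 to 109.9 in WT and from 46.1 to 273 in Dp1Tyb, and Krt5, Krt1, Myod1 and Ckm were not in the table. Chondrocyte markers, in which Sox9 and Col2a1 are included, summed to 1526 to 3234 in WT and 1434 to 2745 in Dp1Tyb. None of these markers was called by edgeR under either scaling, and at an unadjusted p under 0.05 there was 1, the muscle myosin gene Myh3, with spike-in scaling. Myh3 had a log2 fold change above 0 like Mmp9, 1.24 (SE 0.42) with spike-in and 1.04 (SE 0.55) with relative scaling, with overlapping groups, as had Actc1, the other muscle marker tested, with 0.80 (SE 0.48) and 0.76 (SE 0.43). The part of muscle cells in the Mmp9 difference was not tested.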

How the data were processed

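Poly(A) RNA of 4 WT and 4 Dp1Tyb MEF libraries was sequenced. The deposited values are raw counts per gene and spike-in: the authors trimmed adapters with Trim Galore, aligned reads with TopHat (2.0.12) to GRCm38 with the spike-in sequences added, discarded reads with several alignments and counted with htseq-count. The annotation release and strand option are not given in the sources used here. Reads shared between close copies are lost by this procedure, which can lower the counts of genes with near-identical copies. The deposited normalised table and the table of the authors' DESeq2 comparison (fold changes and p-values) were not used.

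Groups and replicate numbers came from the labels. Gene positions and exon lengths came from GENCODE M21. Libraries were scaled by median-of-ratios factors of the spike-ins (spike-in scaling) or by TMM factors of the endogenous genes (relative scaling). Genes were filtered by filterByExpr (16470 kept) and tested two-sided with edgeR 4.0.16 (quasi-likelihood F test, R 4.3.3), fitted across all genes with Benjamini-Hochberg adjustment. The fits were tested on simulated data, and the outcome is not reported here. Standard errors are the log2 fold change over the root of F. Normalised read counts are counts over size factors with a geometric mean of 1. Pairs were tested by exact two-sided permutation of all pairings. The alternatives were DESeq2 1.42.0, other factors and filters, a replicate block, a pseudocount of 5 in place of 0.5, and leaving out libraries. Counts between libraries of a genotype differed by a chi-square per degree of freedom from 10.4 to 95.7, so none was a duplicate, and replicate spread exceeds counting error.

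The members and lists were chosen with earlier results of these data known. All 10 members are named, of the related lists the genes with an unadjusted p under 0.05 (at most 5 per list) and Ets2, the host genes Syn1 and Syn3, and the 5 profiles most like Mmp13 and Mmp3. For the last, genes needed a mean count of at least 100 and an SD of at least 0.5 times that of the member. Mmp2 and Mmp9 have no promoter entry and are named only.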

Additional observations from a re-analysis of the deposited data

Results flagged for a closer look

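In 40 sets of 4 libraries (10 genes, both genotypes, both scalings), 3 had a library far from the others, with a gap to the nearest library above Dixon's critical share of the range; chance alone gives about 1 in 20. With spike-in scaling, the normalised read count of Mmp13 in Dp1Tyb replicate 4 was 1998, and this library also had the most RNA per spike-in, 1.31 times the geometric mean. With relative scaling, Mmp13 in WT replicate 4 had a normalised read count of 1514, where the other WT libraries had from 679 to 761. Mmp9 in WT replicate 2 had a relative normalised read count of 76.2, where the other WT libraries had from 31.7 to 39.2. Without WT replicate 2 the log2 fold change of Mmp9 with relative scaling was 1.43 in place of 1.07, with an edgeR adjusted p of 0.292.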

How the results depend on the processing

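The count of members called was 0 under each of 15 alternatives per scaling, of which 1 was a DESeq2 fit and the others edgeR fits. The count over all tested genes moved: from 2 with spike-in scaling to 9 with the replicate block and 0 with at least 10 counts in every library, and from 3 with relative scaling to 7 with the block, 0 with that filter, 54 with DESeq2 and 1 without both libraries numbered 1, an alternative chosen after seeing the data. Leaving out 1 library gave from 2 to 8 calls with spike-in scaling and 1 in each fit with relative scaling. Same-numbered libraries deviated together with r of 0.366, 0.524, 0.0297 and 0.327 across genes, and WT replicate 3 matched Dp1Tyb replicate 4 best, so the numbers were not taken as pairs. With the block the log2 fold change of Mmp9 was 1.23 (edgeR adjusted p = 0.146) with spike-in and 1.13 (edgeR adjusted p = 0.233) with relative scaling, and Mmp2 turned to 0.0242 with relative scaling. In place of Mmp9 alone, the block fit had 5 members at an unadjusted p under 0.05 with spike-in scaling (Mmp3, Mmp9, Mmp10, Mmp13 and Timp1), beside 3.03% of all tested genes, and 4 with relative scaling (Mmp9, Mmp13, Timp1 and Timp3), beside 9.72%.

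Mmp3, Mmp9, Mmp13, Timp1 and Timp3 stayed above 0 under all alternatives with spike-in scaling. With relative scaling Mmp9, Mmp13, Timp1 and Timp3 did. Leaving out 1 library with spike-in scaling gave from -0.12 to 0.44 for Mmp2, -0.0166 to 1.55 for Mmp10, -0.0599 to 0.21 for Mmp11, -0.0251 to 0.31 for Mmp14 and -0.30 to 0.56 for Timp2. With relative scaling it gave from -0.16 to 0.20 for Mmp2, -0.00256 to 0.76 for Mmp3, -0.0293 to 1.09 for Mmp10, -0.19 to 0.19 for Mmp11, -0.0726 to 0.0599 for Mmp14 and -0.36 to 0.29 for Timp2. Without both libraries numbered 1 and with relative scaling the values were 0.16 for Mmp2, -0.0457 for Mmp10, 0.12 for Mmp11, 0.0056 for Mmp14 and -0.18 for Timp2. Those of Mmp13 and Timp3 were both 0.42. With spike-in scaling the same fit gave 0.34 for Mmp2, 0.11 for Mmp10, 0.29 for Mmp11 and 0.47 for Mmp13. It gave 0.18 for Mmp14 and 0.53 for Timp3. Of the pairs, 0 passed with relative and 3 with spike-in scaling, and Mmp9 with Timp1 turned to r = -0.163 as deviations from the genotype mean and Mmp3 with Timp1 to r = 0.141 with spike-in scaling. The cause of these changes was not tested. The counts of Mmp9, from 32 to 152 per library, limit its precision.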
